A study of Mus musculus with 16 samples.

Results

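The 10 genes described here handle zinc inside the cell, and they were followed by RNA-seq in mouse bone marrow-derived macrophages exposed to platelets and thrombin. They were selected by symbol from the 46320 genes of the count table: the metallothionein genes Mt1 and Mt2, the exporter genes Slc30a1, Slc30a5, Slc30a6 and Slc30a7, the importer genes Slc39a1, Slc39a6 and Slc39a10, and Mtf1, which encodes the transcription factor that senses zinc. The group was put together after Mt1, Mt2 and Slc39a10 had been seen to differ between thrombin and vehicle and between activated platelets and vehicle. For these 10 genes, both of those comparisons are therefore given as a description without a test. All 10 passed the filter on low counts and were among the 15610 genes tested.

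Macrophages were grown from bone marrow of C57BL6/J mice for 7 days in medium with 15% L929-conditioned medium, a source of the growth factor M-CSF, and were kept in 0.5% serum for 4 h before treatment. They were then treated for 4 h with thrombin-activated platelets, resting platelets, thrombin alone or vehicle (PBS), with 4 libraries per group and 16 in all. The platelets came from the blood of mice of the same strain, and thrombin is the clotting protease that activates them. The treatment label gives thrombin alone at 0.1 U/mL while the protocol gives 0.01 U/mL for both thrombin-containing groups, so it is not certain that they received the same dose.

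A cell keeps its free zinc low by moving it across membranes and by binding it. ZIP proteins, encoded by the Slc39a genes, carry zinc into the cytosol. ZnT proteins, encoded by the Slc30a genes, carry it out of the cytosol, either to the outside or into organelles. Metallothioneins are small cysteine-rich proteins that bind zinc and copper. When zinc in the cytosol rises, MTF-1 binds metal response elements in the promoters of Mt1, Mt2 and Slc30a1 and raises their transcription, and it is known to lower transcription of Slc39a10. In macrophages, zinc is withheld from or delivered to engulfed microbes, and these genes respond to infection and to inflammatory signals.

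Because the metal response element links several of these genes, the start regions of the 4 genes with the widest differences are shown here, 5′ to 3′ on the gene's own strand. The sequences are from RefSeq on build GRCm38.p6 and run from 250 bases before the annotated start to 30 bases after it, 280 bases in all. The starts are those annotated on that build and were not matched to the gene bounds of the count table. Capitals mark matches to the core of the element, searched as TGCACNC and TGCGCNC on both strands. Slc39a10 has 2 annotated starts, and both windows are shown.
Mt1, chr8:94178839-94179118, plus strand: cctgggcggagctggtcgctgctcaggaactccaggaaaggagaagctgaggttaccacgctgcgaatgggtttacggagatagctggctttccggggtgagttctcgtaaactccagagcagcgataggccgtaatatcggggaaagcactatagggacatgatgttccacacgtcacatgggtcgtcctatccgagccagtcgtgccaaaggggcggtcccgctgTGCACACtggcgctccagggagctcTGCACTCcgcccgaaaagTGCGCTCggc
Mt2, chr8:94172368-94172647, plus strand: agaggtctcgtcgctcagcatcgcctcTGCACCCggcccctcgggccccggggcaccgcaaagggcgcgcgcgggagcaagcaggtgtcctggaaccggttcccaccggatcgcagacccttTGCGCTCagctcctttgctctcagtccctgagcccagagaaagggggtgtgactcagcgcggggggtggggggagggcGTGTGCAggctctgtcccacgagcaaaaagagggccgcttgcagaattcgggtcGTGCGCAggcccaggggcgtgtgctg
Slc30a1, chr1:191906531-191906810, plus strand: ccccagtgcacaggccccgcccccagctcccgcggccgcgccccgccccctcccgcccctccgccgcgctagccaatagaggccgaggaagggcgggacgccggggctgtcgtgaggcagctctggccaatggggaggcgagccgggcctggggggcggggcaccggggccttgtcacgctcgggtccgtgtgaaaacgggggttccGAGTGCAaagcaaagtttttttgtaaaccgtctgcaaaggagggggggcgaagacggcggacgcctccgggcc
Slc39a10, upstream start, chr1:46925747-46926026, minus strand: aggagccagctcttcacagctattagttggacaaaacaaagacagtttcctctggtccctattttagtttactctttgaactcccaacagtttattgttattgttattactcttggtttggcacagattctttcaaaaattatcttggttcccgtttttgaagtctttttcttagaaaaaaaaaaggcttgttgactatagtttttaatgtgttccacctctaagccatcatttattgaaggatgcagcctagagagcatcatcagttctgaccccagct
Slc39a10, downstream start, chr1:46853589-46853868, minus strand: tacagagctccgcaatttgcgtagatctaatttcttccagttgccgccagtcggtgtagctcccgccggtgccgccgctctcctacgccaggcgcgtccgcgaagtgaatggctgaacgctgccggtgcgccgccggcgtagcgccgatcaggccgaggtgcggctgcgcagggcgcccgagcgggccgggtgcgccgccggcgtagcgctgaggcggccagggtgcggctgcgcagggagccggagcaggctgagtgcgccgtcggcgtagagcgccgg

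The Mt2 window held 4 matches, the Mt1 window 3 and the Slc30a1 window 1, while neither Slc39a10 window held one. Among the 9 of the 10 genes that had a window, Slc30a5 had 1 match, and Slc39a1, Slc30a7, Mtf1 and Slc30a6 had none. Over all 32851 windows of the same length, 24.1% held at least 1 match, 6.37% at least 2, 1.73% at least 3 and 0.405% at least 4. A single match is thus common, and a match marks letters only, not a bound site. In the full sequences available, which ran slightly further downstream than these windows, Slc30a1 had 2 matches. The counts of Mt1, Mt2 and Slc39a10 were the same there.

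On the deposited build, GRCm39, the metallothionein genes lie side by side on the plus strand of chromosome 8, Mt2 at 94899246 to 94900195 and Mt1 at 94905214 to 94906955. Slc39a10 (46846704 to 46964952, minus strand) and Slc30a1 (191638810 to 191645359, plus strand) are both on chromosome 1. Slc39a1 and Slc30a7 are on chromosome 3, Mtf1 on chromosome 4, Slc30a5 on chromosome 13, Slc30a6 on chromosome 17 and Slc39a6 on chromosome 18. Between genes, levels were compared as CPM, the count scaled to a common library size, per kilobase of combined exon length. In vehicle-treated macrophages the order on this scale was Slc39a1 (64.3 ± 3.18), Mt1 (34.0 ± 2.88), Slc30a5 (27.1 ± 1.59), Slc39a6 (19.4 ± 0.844), Mt2 (12.4 ± 2.09), Slc30a1 (10.1 ± 1.21), Slc30a6 (6.49 ± 0.306), Slc30a7 (5.07 ± 0.301), Mtf1 (4.29 ± 0.213) and Slc39a10 (3.77 ± 0.297), each as mean ± SD over 4 libraries. Mt2 and Slc30a1 were neighbours whose spreads overlapped. With activated platelets Mt1 stood at 10.9 ± 0.92 and Slc39a10 at 10.6 ± 0.672 CPM per kb, so that these 2 genes, far apart under vehicle, had nearly the same level on this scale. With thrombin alone they were also close, at 13.6 ± 1.23 and 12.0 ± 0.769 CPM per kb. The scale rests on combined exon lengths of 1258 bases for Mt1 and 15974 bases for Slc39a10, which need not be those of the expressed transcripts.

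The libraries held 22.6 M to 30.6 M counts (M, mega). All 8 macrophage markers were present in every group (for example Csf1r, the M-CSF receptor, at 2290 to 3100 CPM), and their summed level covered 16400 to 21600 CPM over all libraries. Markers of other cells were also present. Summed over 14 genes, platelet and megakaryocyte markers were at 376 to 432 CPM with activated platelets, 230 to 269 CPM with resting platelets, 215 to 231 CPM with thrombin and 204 to 249 CPM with vehicle; Gp9, a platelet surface receptor gene, was at 0 in every thrombin and vehicle library. Erythroid markers (5 genes) summed to 7.51 to 14.1, 0.712 to 2.98, at most 0.0401 and at most 0.0714 CPM in the same order of groups, with Hbb-bs and Hbb-bt at 0 in every thrombin and vehicle library, and lymphocyte markers (5 genes) to 3.08 to 7.47, 8.45 to 22.8, 11.5 to 22.6 and 14.0 to 25.5 CPM. Neutrophil markers (6 genes) covered 9.86 to 93.8 CPM and stromal markers (4 genes) 1970 to 4970 CPM, with overlapping ranges in all groups. A change in the number of cells of a type and a change in RNA per cell cannot be told apart in bulk RNA. Libraries with the same replicate number shared more than a name: the Y-linked Ddx3y was at 85.1 to 93.2 CPM in all 4 libraries numbered 1 and at no more than 0.27 CPM in the other 12. Xist, a transcript of female cells, was at 0.0716 to 1.06 CPM in the libraries numbered 1 and at 1060 to 1290 CPM in the other 12. Fits without all libraries numbered 1 thus leave out the only ones with the pattern of male cells.

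The comparison of activated with resting platelets asks what thrombin changes when platelets are present, and its libraries are not those of the comparison of thrombin with vehicle. In it 8 of the 10 genes passed the threshold, an adjusted p under 0.05 in edgeR's quasi-likelihood test over all 15610 genes: 3 were higher and 5 lower with activated platelets. Over all genes 15.8% passed, 7.34% higher and 8.49% lower. The activated-platelet libraries had also been part of the comparison with vehicle in which the genes were noticed, so this count is not wholly independent of their choice. Mt1, Mt2 and Slc30a1 fell 2.66-, 5.65- and 2.6-fold, Slc39a10 rose 2.58-fold, and the changes of the other 4 were at most 1.15-fold.

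**Figure D1:**
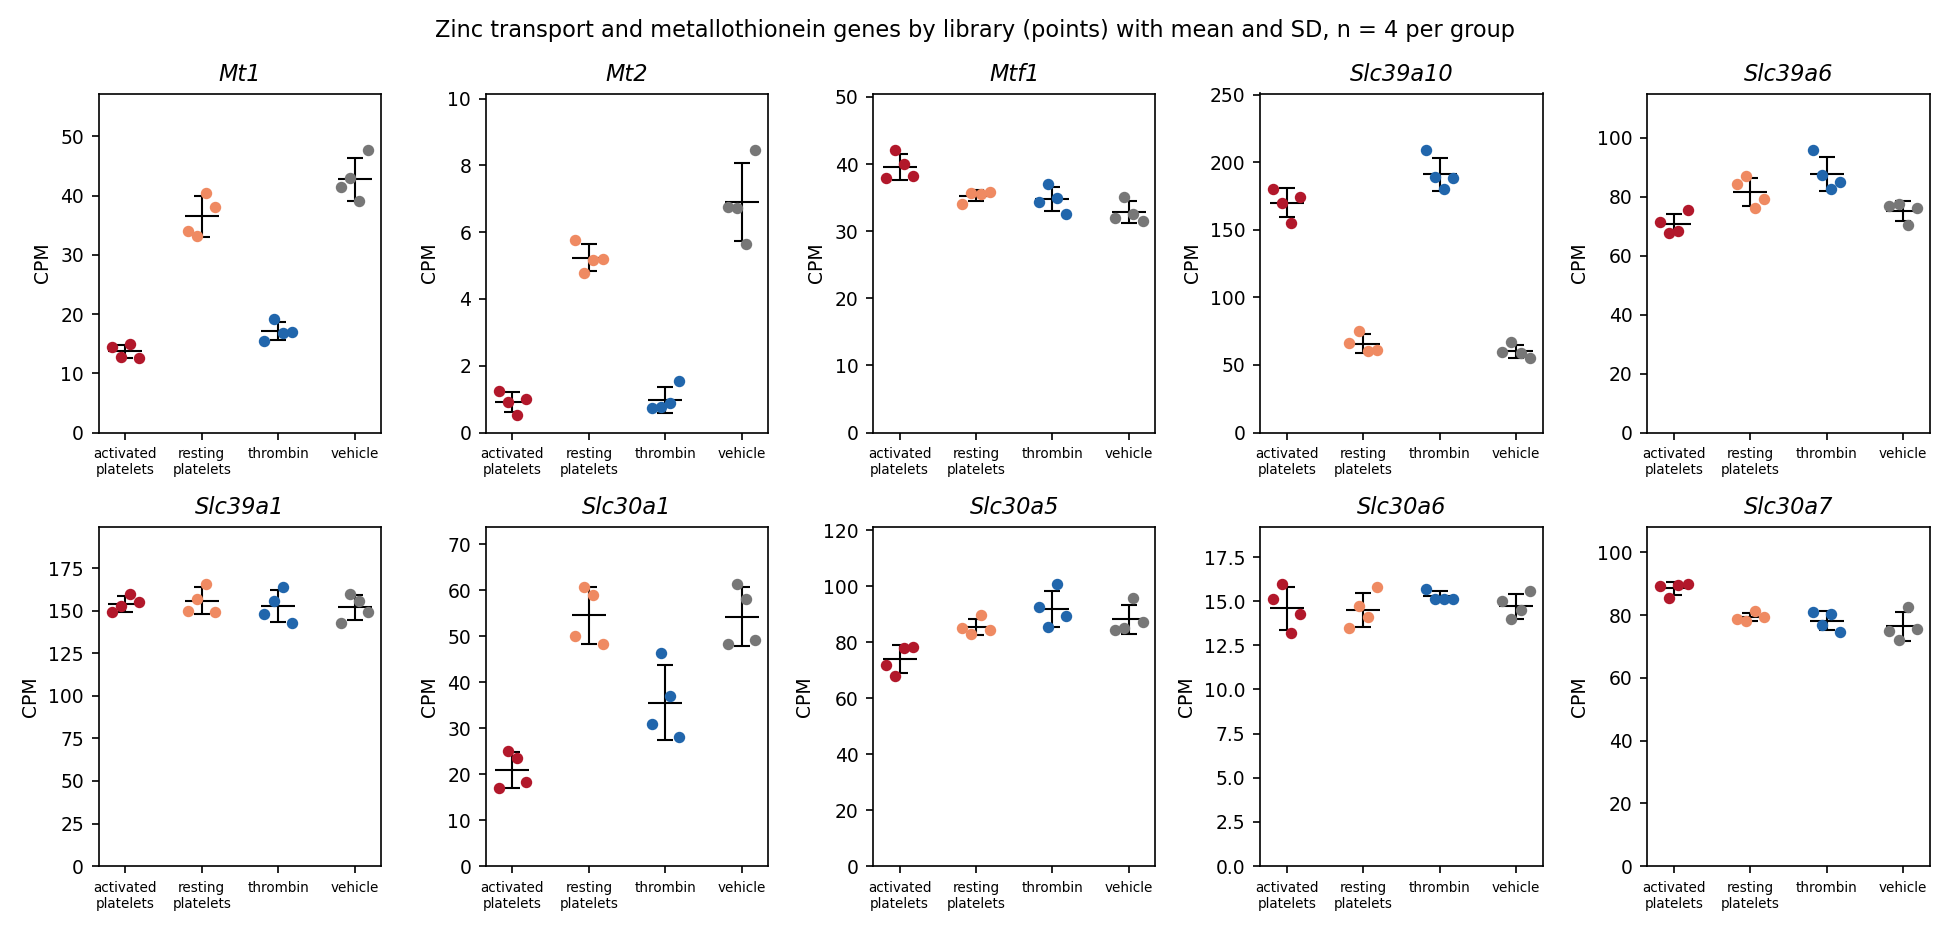
Library-size scaled level (CPM, linear axes from 0) of each of the 10 genes in macrophages with activated platelets, resting platelets, thrombin or vehicle; points are libraries, and bars give the mean and SD (n = 4). Mt1 and Mt2 are low and Slc39a10 is high in both groups that received thrombin, Slc30a1 is lowest with activated platelets (17.1 to 25.1 CPM), and the other genes stay within narrow ranges.

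Mt1 had 14.4, 12.8, 15.0 and 12.6 CPM in replicates 1 to 4 with activated platelets, against 34.0, 33.2, 40.5 and 38.1 CPM with resting platelets. Every activated-platelet library was below every resting-platelet library. The fall was 2.66-fold, a log2 fold change of -1.41 ± 0.09 (SE, edgeR; adjusted p = 5.1e-08). Mt2 had 1.23, 0.901, 0.539 and 0.995 CPM with activated platelets, against 5.76, 4.78, 5.18 and 5.19 CPM with resting platelets. These values rest on 15 to 38 counts and on 116 to 152 counts per library, far fewer than the 368 to 1047 behind Mt1, and the groups did not overlap. Mt2 fell 5.65-fold (log2 fold change -2.5 ± 0.22; edgeR, adjusted p = 2.41e-06), the widest change among the 10 genes.

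The metallothionein mRNAs did not keep their proportion to each other. For every 100 counts of Mt1 there were 8.58, 7.03, 3.6 and 7.88 counts of Mt2 with activated platelets, against 16.9, 14.4, 12.8 and 13.6 with resting platelets. Without platelets the ratio was 4.69, 4.02, 5.24 and 9.17 with thrombin, against 16.3, 15.7, 14.4 and 17.7 with vehicle. In each pair of groups the ranges were separate, so Mt2 was reduced in a larger proportion than Mt1 both with and without platelets.

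Slc30a1 encodes ZnT1, the transporter that carries zinc out through the plasma membrane. It had 17.1, 25.1, 23.5 and 18.2 CPM with activated platelets, against 50.1, 60.8, 59.0 and 48.4 CPM with resting platelets, with no overlap. It fell 2.6-fold (log2 fold change -1.38 ± 0.15; edgeR, adjusted p = 1.82e-05). Within both groups replicates 2 and 3 were the higher ones, and the log2 ratio between libraries of the same number stayed between -1.55 and -1.28.

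Slc39a10 encodes ZIP10, a zinc importer of the plasma membrane. It moved in the other direction: 180, 170, 155 and 174 CPM with activated platelets, against 66.4, 75.3, 60.3 and 60.8 CPM with resting platelets, again without overlap. The rise was 2.58-fold (log2 fold change 1.37 ± 0.08; edgeR, adjusted p = 2.5e-08). The ratio of importer to exporter mRNA, Slc39a10 over Slc30a1 in CPM, was 6.59 to 10.5 with activated platelets and 1.02 to 1.33 with resting platelets.

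Platelet marker levels also differed between these groups: 11 of the 14 platelet markers were called higher with activated platelets and none lower. The same markers summed to 204 to 249 CPM with vehicle, where no platelets were added, so their RNA does not come from added platelets alone. The part of platelet RNA in the values of the zinc genes was not tested. The macrophage marker sums were 16400 to 21300 CPM with activated platelets and 16800 to 21600 CPM with resting platelets, with 2 of the 8 macrophage markers called higher and 0 lower with activated platelets.

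The other importers and exporters changed little or not detectably between activated and resting platelets. Slc39a6, which encodes the importer ZIP6, averaged 70.8 ± 3.46 CPM with activated platelets and 81.6 ± 4.87 CPM with resting platelets (log2 fold change -0.21 ± 0.05; edgeR, adjusted p = 0.0179). Slc30a5, whose product loads zinc into the early secretory pathway, averaged 74.1 ± 4.94 and 85.5 ± 2.89 CPM in the same groups (log2 fold change -0.21 ± 0.06; edgeR, adjusted p = 0.0222). Slc30a7, which encodes a zinc transporter of the Golgi, moved the other way, with 88.6 ± 2.1 CPM with activated platelets and 79.4 ± 1.35 CPM with resting platelets (log2 fold change 0.16 ± 0.04; edgeR, adjusted p = 0.0167). Mtf1 was at 39.6 ± 1.91 CPM with activated platelets and 35.3 ± 0.855 CPM with resting platelets (log2 fold change 0.16 ± 0.05; edgeR, adjusted p = 0.0295). Slc39a1, for the widely expressed importer ZIP1, had log2 fold change -0.01 ± 0.05 (edgeR, adjusted p = 0.882). Slc30a6, whose product pairs with that of Slc30a5, had 0.01 ± 0.06 (edgeR, adjusted p = 0.929).

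Of the 8 calls, those of Mt1, Mt2, Slc30a1 and Slc39a10 were kept whichever single library or replicate number was left out. Those of Mtf1, Slc39a6 and Slc30a5 depended on single libraries. Mtf1 was lost without activated-platelet replicate 2 or 3 (adjusted p = 0.0947 and 0.0672) or resting-platelet replicate 1, 2 or 3 (0.0923, 0.0529 and 0.0562). Slc39a6 was lost without activated-platelet replicate 2 or 3 (0.051 and 0.0513) or resting-platelet replicate 1 or 2 (0.0543 and 0.0577), and Slc30a5 without activated-platelet replicate 1 or 2 (0.0612 and 0.0684) or resting-platelet replicate 3 (0.068). Slc30a7 was lost without all libraries numbered 1 or 4 (0.0982 and 0.0729). Without activated-platelet replicate 2 the count was 5, and without all libraries numbered 1, 2 or 4 it was 4, 5 and 5. In the same fits and order, 2151 of 15734, 972 of 15581, 1952 of 15662 and 1695 of 15579 genes were called. Mtf1 and Slc39a1 each overlap a protein-coding gene on the opposite strand: 1110065P20Rik was at 7.7 to 10.5 CPM and Creb3l4 at 3.29 to 4.99 CPM. The strand setting of the counting is not given in the sources used here.

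Resting platelets against vehicle asks what platelets do without thrombin. The vehicle libraries had also been part of the comparisons in which the genes were noticed. The values below are thus not wholly independent of the choice of genes. In edgeR's test 0 of the 10 genes passed, beside 3.39% of all genes (2.07% higher, 1.32% lower). DESeq2 and limma-voom also called 0, and 3 of the 10 had an unadjusted p under 0.05 in edgeR, beside 3001 of all 15610 genes. Mt1 had 34.0, 33.2, 40.5 and 38.1 CPM with resting platelets, against 41.4, 42.9, 39.1 and 47.7 CPM with vehicle. Replicate 3 with resting platelets was above replicate 3 with vehicle, and the ranges overlapped (log2 fold change -0.23 ± 0.08; edgeR, adjusted p = 0.129, and 0.0243 with the replicate number as a block). Mt2 averaged 5.23 ± 0.401 CPM with resting platelets and 6.9 ± 1.16 CPM with vehicle (log2 fold change -0.4 ± 0.19; edgeR, adjusted p = 0.264, and 0.0197 with the block). Slc39a6 averaged 81.6 ± 4.87 CPM with resting platelets and 75.2 ± 3.28 CPM with vehicle (edgeR, adjusted p = 0.253, and 0.0388 with the block).

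With the block the count was thus 1 higher and 2 lower, beside 21.5% of all genes called with the block. Slc30a1 had nearly equal levels, 54.6 ± 6.21 CPM with resting platelets and 54.3 ± 6.49 CPM with vehicle (log2 fold change 0.01 ± 0.15; edgeR, adjusted p = 0.986), and the ratio between libraries of the same number lay within 0.05 log2 units of 0. Slc39a10 averaged 65.7 ± 6.99 CPM with resting platelets and 60.1 ± 4.75 CPM with vehicle, higher in 4 of 4 same-number pairs but by no more than 0.17 log2 units (edgeR, adjusted p = 0.384). Beside these values, 7 of the 14 platelet markers were called higher with resting platelets.

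Thrombin against vehicle is the comparison in which the genes were noticed, so its values are a description. Few genes were called in it at all: 0.288% of those tested, 45 in number, 0.0897% higher and 0.199% lower. Mt1 had 15.4, 19.1, 16.8 and 16.9 CPM with thrombin, against 41.4, 42.9, 39.1 and 47.7 CPM with vehicle. Mt2 had 0.722, 0.77, 0.88 and 1.55 CPM with thrombin (18 to 41 counts), against 6.76, 6.73, 5.64 and 8.46 CPM with vehicle. Slc39a10 had 209, 189, 180 and 188 CPM with thrombin, against 59.5, 66.7, 58.9 and 55.4 CPM with vehicle. The groups did not overlap for these 3 genes, which had been noticed by this very difference. The share of all genes without overlap was not counted, here or in the other comparisons.

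The log2 fold changes of these genes stood at -1.33 ± 0.08 for Mt1, -2.8 ± 0.23 for Mt2 and 1.67 ± 0.08 for Slc39a10. Slc30a1 had 30.9, 46.4, 37.1 and 28.0 CPM with thrombin, against 48.4, 61.5, 58.1 and 49.3 CPM with vehicle. The highest thrombin library of Slc30a1 was just below the lowest vehicle library, and every thrombin library was lower than the vehicle library of its own number, by 0.41 to 0.82 log2 units. The value was 0.22 ± 0.05 for Slc39a6 and between 0.01 and 0.09 for the remaining 5 genes. Activated platelets against vehicle used the same vehicle libraries and gave log2 fold changes of -1.64 ± 0.09 for Mt1, -2.9 ± 0.22 for Mt2, -1.37 ± 0.15 for Slc30a1 and 1.5 ± 0.08 for Slc39a10, where 25.8% of all genes were called, 12.2% higher and 13.6% lower.

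**Figure D2:**
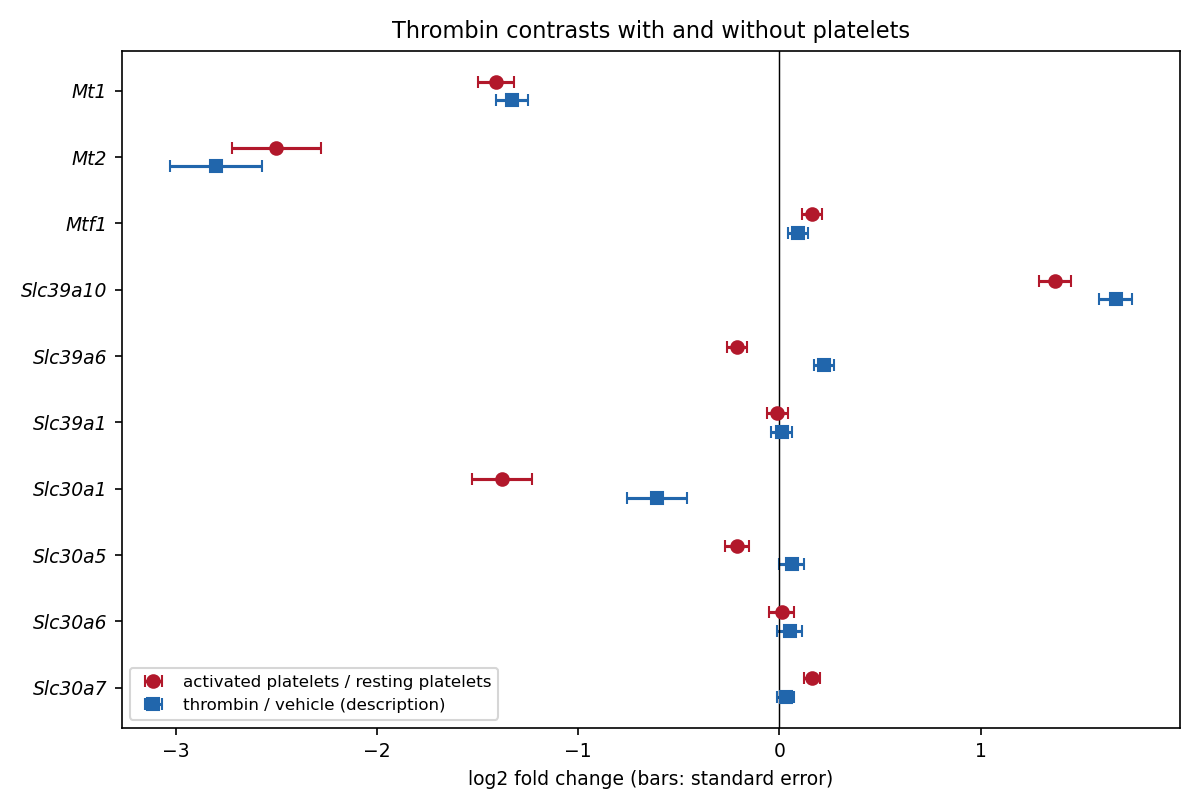
Log2 fold change (x axis; bars are the standard error of the edgeR fit) of each gene for activated over resting platelets (circles) and for thrombin over vehicle (squares, a description). Mt1, Mt2 and Slc39a10 lie far from 0 on the same side in both, Slc30a1 lies at -1.38 in one and -0.61 in the other, and Slc39a6 lies on opposite sides of 0.

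Whether the thrombin difference was itself different with platelets was tested as activated minus resting platelets, less thrombin minus vehicle. Of the 10 genes 3 passed, all of them lower (9.93% of all genes passed, 4.56% higher and 5.37% lower). These values use the thrombin and vehicle libraries in which the genes were noticed. Slc30a1 was lower by 0.77 ± 0.21 log2 units beyond the difference seen without platelets (edgeR, adjusted p = 0.031, and 1.07e-07 with the replicate block). Slc39a6 stood at -0.43 ± 0.08 (edgeR, adjusted p = 0.0027), with 87.8 ± 5.75 CPM with thrombin beside 75.2 ± 3.28 CPM with vehicle, and 70.8 ± 3.46 CPM with activated platelets beside 81.6 ± 4.87 CPM with resting platelets. Slc30a5 stood at -0.27 ± 0.08 (edgeR, adjusted p = 0.0486).

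Mt1 (-0.09 ± 0.12) and Mt2 (0.3 ± 0.33) did not pass (edgeR, adjusted p = 0.723 and 0.621), and Slc39a10 stood at -0.3 ± 0.11 (edgeR, adjusted p = 0.0824, and 0.00241 with the block). The Slc39a6 call was kept without any 1 library and lost without all libraries numbered 1 (adjusted p = 0.0664). The Slc30a1 call was lost in 8 of the 16 fits that left out 1 library: activated-platelet replicate 1 or 4 (adjusted p = 0.0719 and 0.0648), resting-platelet replicate 2 or 3 (0.0615 and 0.0598), thrombin replicate 2 or 3 (0.0567 and 0.0578) and vehicle replicate 1 or 4 (0.0708 and 0.0697). The Slc30a5 call was kept only without activated-platelet replicate 3 or 4, thrombin replicate 2 or 4 or vehicle replicate 3, 5 of the 16 fits (adjusted p up to 0.0926 in the others), and Slc39a10 passed without vehicle replicate 2 (0.0436). A difference in thrombin dose between the groups, if there was one, cannot be told apart from an effect of platelets in these values.

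Activated platelets against thrombin compares the presence of platelets where thrombin is in both groups. The libraries of both groups had been part of the comparisons with vehicle in which the genes were noticed. Of the 10 genes 6 passed, 2 higher and 4 lower, with 25.4% of all genes passing (11.9% higher, 13.5% lower). Slc30a1 was again the gene with the widest change, 21.0 ± 3.91 CPM with activated platelets and 35.6 ± 8.12 CPM with thrombin, 1.7-fold lower (log2 fold change -0.76 ± 0.15; edgeR, adjusted p = 0.00166). All 4 activated-platelet libraries were below all 4 thrombin libraries. Mt1 averaged 13.7 ± 1.16 CPM with activated platelets and 17.1 ± 1.55 CPM with thrombin (log2 fold change -0.32 ± 0.09; edgeR, adjusted p = 0.0134, but 0.0512 without thrombin replicate 2, and 0.127 and 0.0622 without all libraries numbered 2 or 4). The highest activated-platelet library, 15.0 CPM, was just below the lowest thrombin library, 15.4 CPM.

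Mt2 showed no such difference beyond its spread, with 0.917 ± 0.288 CPM with activated platelets and 0.98 ± 0.384 CPM with thrombin (log2 fold change -0.1 ± 0.26; edgeR, adjusted p = 0.843). At these counts its direction was not fixed, and the value ran up to 0.23 without thrombin replicate 4. Slc39a6 and Slc30a5 were each 1.24-fold lower (edgeR, adjusted p = 0.000534 and 0.000792), Slc30a7 was 1.13-fold and Mtf1 1.14-fold higher (0.00427 and 0.00927; Mtf1 at 0.0763 and 0.0525 without all libraries numbered 3 or 4). Slc39a10 was lower in 4 of 4 same-number pairs by 0.11 to 0.21 log2 units but did not pass (edgeR, adjusted p = 0.0994, and 0.0041 with the replicate block). All 14 platelet markers were called higher with activated platelets in this comparison, and their part in these values was not tested.

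Set in order of level, Mt1 was highest with vehicle, then with resting platelets, thrombin and activated platelets. The test separated its vehicle and resting-platelet levels only when the replicate block was used without a GC correction. With both, the adjusted p in edgeR was 0.0509 for Mt1 and 0.0589 for Mt2. Mt2 had the same order, and in it the thrombin and activated-platelet levels were not separated either. Resting platelets and thrombin, which were not tested against each other, did not overlap for either gene. Slc39a10 was highest with thrombin, then with activated platelets, resting platelets and vehicle, and the lower neighbours were not separated, nor were the upper ones unless the block was used. Slc30a1 was equal with resting platelets and vehicle, lower with thrombin and lowest with activated platelets.

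Over the 16 libraries log2 CPM of Slc39a10 had a Pearson correlation of -0.961 with Mt1, -0.958 with Mt2 and -0.785 with Slc30a1. Mt1 correlated with Mt2 at 0.953 and with Slc30a1 at 0.883. These libraries form 4 groups and share replicate numbers, so the values describe the separation of the groups and carry no test. Mtf1, in contrast, correlated with Slc39a10 at only 0.52 and with Mt1 at -0.648.

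**Figure D3:**
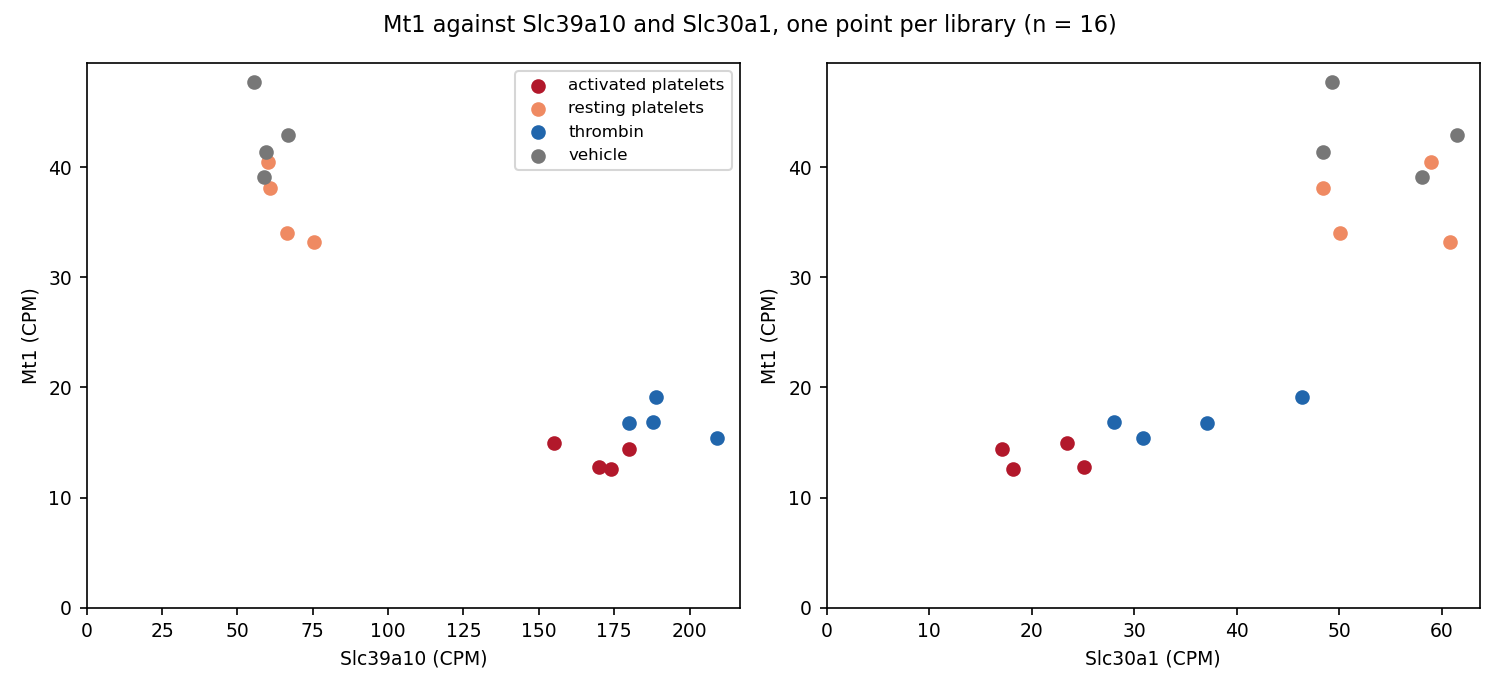
Mt1 level (CPM, y axis) against Slc39a10 (left) and Slc30a1 (right) level (CPM, x axes), one point per library, 16 libraries in 4 groups. On the left the libraries fall into a pair of clusters, those with thrombin (Slc39a10 at 155 CPM or more) and those without it (75.3 CPM or less); on the right the thrombin libraries lie between the activated-platelet libraries and the rest along the Slc30a1 axis.

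Outside the 10 genes, and among 10534 genes with at least 5 CPM on average in any group, those most like Slc39a10 were Zfp143, a zinc finger transcription factor gene (r = 0.956), Zfp341 (0.915) and Slc19a2, a thiamine transporter gene (0.904). Zfp143 averaged 29.3 ± 0.694 CPM with activated platelets, 23.1 ± 2.61 CPM with resting platelets, 32.3 ± 1.89 CPM with thrombin and 21.1 ± 0.854 CPM with vehicle. Of these other genes, those least like it were Bag5, a co-chaperone gene (-0.92), Zfp422 (-0.911) and Cdc42bpb, a kinase gene (-0.891). Most like Mt1 outside the 10 were Zfp422 (0.934), Tmco4 (0.919) and Zfp715 (0.918), and least like it Slc19a2 (-0.928), Zfp143 (-0.908) and the galectin gene Lgals8 (-0.887). Zfp422 averaged 13.4 ± 0.249 CPM with activated platelets, 18.2 ± 1.19 CPM with resting platelets, 14.4 ± 0.751 CPM with thrombin and 18.5 ± 1.78 CPM with vehicle.

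For Slc30a1 the nearest genes outside the 10 were Arhgef2, a guanine nucleotide exchange factor gene (0.929), the kinase gene Dyrk2 (0.929) and Zfp715 (0.923) on one side, and Mrpl33, a mitochondrial ribosomal protein gene (-0.945), Hsdl2 (-0.92) and Gpd2, a mitochondrial glycerol phosphate dehydrogenase gene (-0.912), on the other. Zfp715 averaged 28.0 ± 0.817 CPM with activated platelets, 45.8 ± 1.98 CPM with resting platelets, 34.6 ± 2.04 CPM with thrombin and 42.7 ± 1.88 CPM with vehicle, in the order in which Slc30a1 stood. Only Zfp715 was named for both Mt1 and Slc30a1. These correlations are over the same 16 libraries and share their groups.

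Of 25 other zinc-handling genes, Zng1 was not found by symbol in the count table, and 16 had enough counts to be tested. Between activated and resting platelets 3 were higher and 1 lower, beside 7.34% and 8.49% of all genes, with a median log2 fold change of 0.02 beside 0.00 over all genes. Slc39a7, for the importer ZIP7 of the endoplasmic reticulum and Golgi, had 170, 162, 171 and 166 CPM with activated platelets, against 149, 140, 152 and 155 CPM with resting platelets (log2 fold change 0.17 ± 0.04; edgeR, adjusted p = 0.00761). Slc39a14, for the inflammation-induced importer ZIP14, which also carries iron, had 66.5, 46.1, 46.2 and 70.2 CPM with activated platelets, against 42.8, 38.3, 34.9 and 46.6 CPM with resting platelets. Replicates 1 and 4 were the high ones in both groups, and the groups overlapped narrowly (log2 fold change 0.49 ± 0.15; edgeR, adjusted p = 0.0397). Slc39a9 rose 1.08-fold (0.0303), and Trpm7, for a divalent cation channel, fell 1.14-fold (0.0095). The calls of Slc39a7 and Trpm7 were kept without any 1 library, but that of Slc39a7 was lost without all libraries numbered 1 (adjusted p = 0.0699) and that of Trpm7 without all numbered 1, 2 or 3 (up to 0.104). That of Slc39a14 was lost without activated-platelet replicate 1 or 4 or resting-platelet replicate 1, 2 or 3, and that of Slc39a9 without activated-platelet replicate 1 or 3 or resting-platelet replicate 2, 3 or 4 (adjusted p up to 0.119 and 0.0661).

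**Figure D4:**
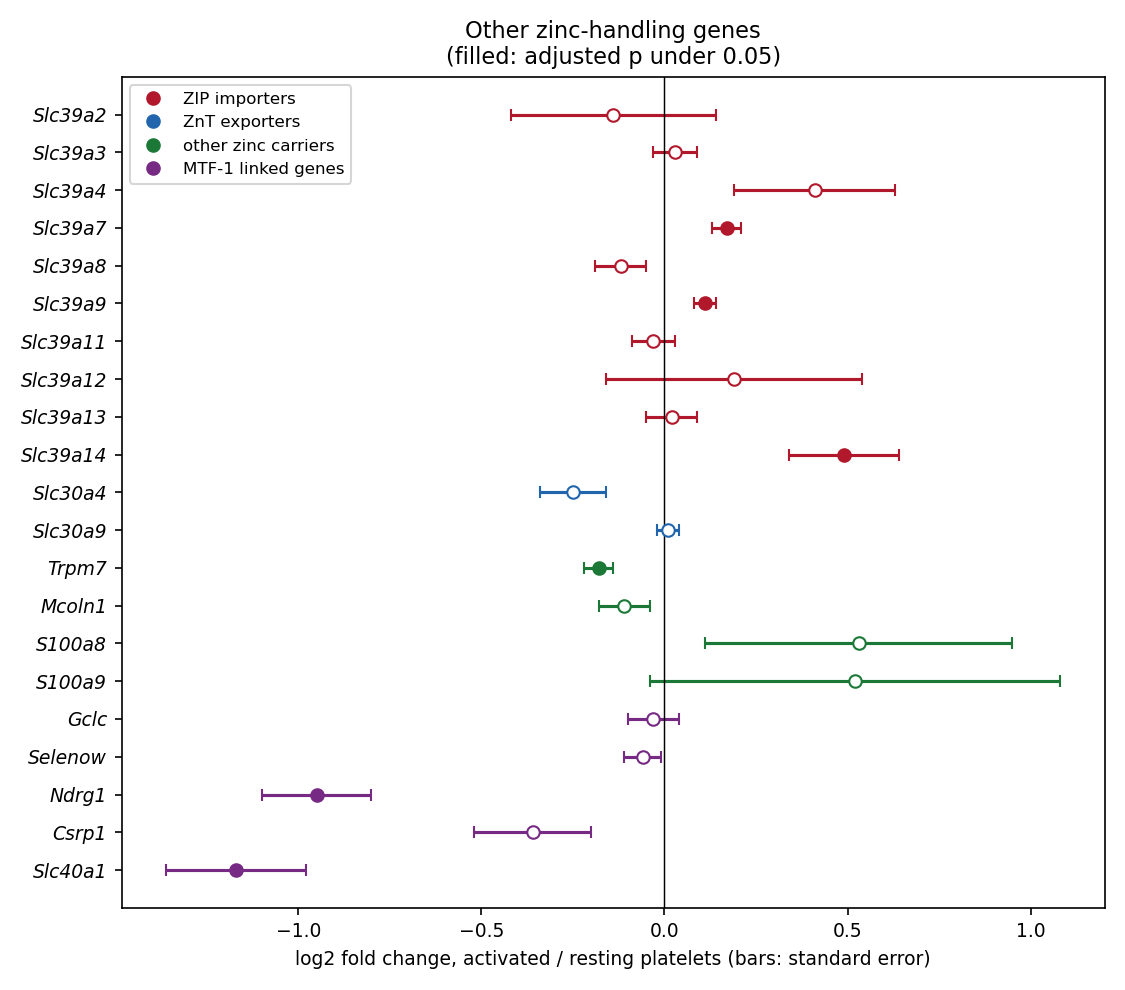
Log2 fold change of activated over resting platelets (x axis; bars are the standard error) for 16 other zinc-handling genes and 5 genes linked to MTF-1; filled points have an adjusted p under 0.05. The zinc transporter genes that passed lie between -0.18 (Trpm7) and 0.49 (Slc39a14), and Ndrg1 and Slc40a1 lie at -0.95 and -1.17.

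Activated platelets against thrombin gave 4 of these 16 genes higher (Slc39a4, Slc39a7, Slc39a9 and Slc39a14) and 3 lower (Slc39a8, Trpm7 and Mcoln1), beside 25.4% of all genes called, 11.9% higher and 13.5% lower. Of these calls, Slc39a9 was kept in 3 of the 16 fits without 1 library, Slc39a4 in 8, Slc39a8 in 11 and Mcoln1 in 12 (adjusted p up to 0.103, 0.151, 0.103 and 0.0949). Activated platelets against vehicle gave 4 higher and 2 lower, beside 25.8% of all genes called; Trpm7 was kept there in 9 of the 16 fits and Slc30a9 in 13 (adjusted p up to 0.137 and 0.067). Resting platelets and thrombin, each against vehicle, gave 0 calls in edgeR, DESeq2 and limma-voom. At an unadjusted p under 0.05 in edgeR there were 3 and 2 of the 16, beside 3001 and 1786 of all 15610 genes. With the replicate block 3 and 2 were called, beside 21.5% and 8.23% of all genes. The interaction gave Slc39a7 higher (0.18 ± 0.05) and Trpm7 lower (-0.27 ± 0.06; edgeR, adjusted p = 0.0407 and 0.0124), beside 9.93% of all genes called, the first of them kept in 7 of the 16 fits without 1 library (adjusted p up to 0.0787) and the second lost without all libraries numbered 1, 2 or 3 (up to 0.205). Mt3 and Mt4, the other metallothionein genes, and the exporter genes Slc30a2, Slc30a3, Slc30a8 and Slc30a10 did not reach the count filter. No zinc importer or exporter gene of this list changed as much as 2-fold in a tested comparison, while Slc39a10 and Slc30a1 did so between activated and resting platelets.

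Of 5 further genes with a reported link to MTF-1, 2 were lower and none higher between activated and resting platelets, beside 8.49% of all genes lower and 7.34% higher. Ndrg1, a stress-response gene, had 43.0, 49.7, 38.1 and 42.1 CPM with activated platelets, against 90.0, 91.6, 78.4 and 73.0 CPM with resting platelets (log2 fold change -0.95 ± 0.15; edgeR, adjusted p = 0.000437). Slc40a1, for the iron exporter ferroportin, had 107, 119, 171 and 104 CPM with activated platelets, against 262, 235, 368 and 261 CPM with resting platelets (log2 fold change -1.17 ± 0.19; edgeR, adjusted p = 0.000476). Neither pair of groups overlapped. Unlike Mt1 and Mt2, both were nearly the same with thrombin as with vehicle: Ndrg1 had 87.2 to 133 CPM with thrombin and 88.7 to 136 CPM with vehicle, and Slc40a1 had 355 to 528 CPM with thrombin and 353 to 549 CPM with vehicle (edgeR, adjusted p = 0.997 and 0.944). The interaction passed for both (-0.94 ± 0.21 and -1.1 ± 0.26; edgeR, adjusted p = 0.00954 and 0.0144), but for neither without all libraries numbered 1 (adjusted p = 0.177 and 0.151).

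Lists of genes that answer to other stimuli known to act on metallothionein genes were described the same way between activated and resting platelets, where 7.34% of all genes were called higher and 8.49% lower. Of 6 NRF2 targets 1 was higher, Slc7a11, the cystine transporter gene (log2 fold change 1.36 ± 0.21; edgeR, adjusted p = 0.000343). Of 4 heat shock genes 1 was higher (Hsph1) and 1 lower (Hspa1b, which limma-voom did not call, which was lost without any 1 of 5 libraries, and whose reads may be shared with its near-identical copy Hspa1a). Of 6 glucocorticoid-induced genes 3 were higher (Fkbp5, Sgk1 and Per1) and 1 lower (Zbtb16). Of 10 iron and copper carriers, 9 of them tested, 2 were higher (the ferritin gene Fth1 and the copper chaperone gene Atox1) and 1 lower (the copper pump gene Atp7a); Fth1 was kept in 12 of the 16 fits without 1 library (adjusted p up to 0.0742). With thrombin against vehicle, edgeR and limma-voom called 0 of the 46 tested genes of all these lists outside the group of 10, DESeq2 called 2, and 5 had an unadjusted p under 0.05 in edgeR. Of all 15610 genes, DESeq2 called 160, and 1786 had an unadjusted p under 0.05 in edgeR. With the replicate number as a block edgeR called 9 of the 46, beside 8.23% of all genes.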

How the data were processed

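Polyadenylated RNA of 16 macrophage cultures (4 groups of 4 libraries) was sequenced from stranded libraries, per the labels' protocols. The authors deposited 1 table of estimated counts per gene for 46320 genes; 25.5% of its values above 0 are not whole. The submitters' processing notes name cutadapt 2.5, STAR 2.7.2b, featureCounts 1.6.4 from Subread, and the builds GRCm39 and mm10; the table's coordinates are those of GRCm39. How reads matching several genes, or either strand, were counted is not given in the sources used here.

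Counts were rounded to whole numbers (a change of 0.00734% of all counts) and fitted with edgeR 4.0.16 (R 4.3.3): filterByExpr, TMM scaling, robust quasi-likelihood test over all 16 libraries in 4 groups, two-sided, Benjamini-Hochberg adjustment over 15610 genes, threshold 0.05. CPM are scaled by TMM library size. Libraries held 22.6 M to 30.6 M counts, which limits Mt2 most. Fold changes and standard errors come from that fit, and within-number ratios from CPM. The script was tested on simulated counts.

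The genes, lists and tests were chosen with earlier results of these data known. All 10 genes are named; from each other list up to 3 called genes per direction with the smallest p in a comparison; and for likeness the 3 highest and 3 lowest Pearson correlations of log2 CPM (prior count 2) among named, non-predicted genes outside the 10 with 5 CPM or more on average in a group. Slc39a4 and the values for Zfp143, Zfp422 and Zfp715 were added after the values were seen.

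Deviations from the group mean correlated between libraries of the same number in all 24 pairs (0.29 to 0.617, against -0.436 to 0.253 in 72 pairs of other numbers in other groups). The numbers were therefore used to pair libraries in the replicate block and in same-number ratios, but not in the main fit. The pairing comes from the data alone. Replicates are not stated to be separate animals, so p-values measure the spread between these libraries. Alternatives were the replicate block, alone and with a GC correction (94.7% of tested genes had a GC value), other scalings, no filter, DESeq2 1.42.0, limma-voom (limma 3.58.1), fits of 2 groups alone, and leaving out each library or number.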

Additional observations from a re-analysis of the deposited data

Results flagged for a closer look

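In 2 of 40 groups of 4 libraries of the 10 genes, 1 library stood apart from the other 3 by Dixon's criterion at the 95% level, which by chance picks about 1 group in 20. They were Mtf1 with resting platelets, where the lowest library was at 34.0 CPM beside 35.6 to 35.9 CPM, and Slc30a6 with thrombin, where the highest was at 15.7 CPM beside 15.1 CPM in the others.

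By the interaction test in edgeR, 3 of the 10 genes were called for a different effect of thrombin with and without platelets. Of all genes 9.93% were called (4.56% higher, 5.37% lower), and of the 46 tested genes of the other lists 10 were called. The difference of log2 fold changes was -0.77 for Slc30a1, -0.43 for Slc39a6 and -0.27 for Slc30a5 (adjusted p = 0.031, 0.0027 and 0.0486). Among the other listed genes it was 0.18 for Slc39a7, -0.27 for Trpm7, -0.94 for Ndrg1 and -1.1 for Slc40a1 (adjusted p = 0.0407, 0.0124, 0.00954 and 0.0144). It was 1.21 for Slc7a11, 0.75 for Fkbp5 and 0.46 for Per1 (0.0177, 0.0149 and 0.0248). For the metal carriers it was 0.51 for Atox1, -0.46 for Atp7a and -0.34 for Tfrc, the transferrin receptor gene (0.00557, 0.000458 and 0.0113). Of the 13 genes, Slc39a6, Trpm7, Ndrg1, Slc40a1, Slc7a11, Fkbp5, Atox1, Atp7a and Tfrc were called in all 16 fits that left out 1 library, and of these only Atp7a also in all 4 that left out a replicate number. Slc30a1 was called in 8 of those 16 fits, Slc30a5 in 5, Slc39a7 in 7 and Per1 in 13. Platelet markers were called higher in 3 of 14 cases by the interaction test, and their part in these differences was not tested. A difference in thrombin dose between the groups, if there was one, cannot be told apart from an effect of platelets here.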

How the results depend on the processing

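The direction and call of Mt1, Mt2, Slc30a1 and Slc39a10 between activated and resting platelets were kept in all alternatives run. The count of the 10 genes called between activated and resting platelets was 8 and ran from 4 to 8 when a library or replicate number was left out. For activated platelets against thrombin it was 6 (4 to 6), for the interaction 3 (0 to 3) and for resting platelets against vehicle 0 (0 to 0). In the same fits 15579 to 15776 genes were tested. Of all genes, 972 to 2549, 2422 to 4008, 264 to 1672 and 58 to 550 were called in these comparisons, in the same order. The median log2 fold change of the 10 ran from -0.07 to -0.03 for activated platelets against vehicle and from 0.02 to 0.06 for thrombin against vehicle. Without filter the interaction count was 1, beside 1167 of 28111 genes. The count of other zinc-handling genes called in at least 1 comparison, 8 in all, was 5 without filter (3 to 9 with libraries left out). Fits of 2 groups alone give no interaction. Log2 fold changes near 0 changed sign: Slc30a1 for resting platelets against vehicle (-0.02 with block and GC correction, 0.0 with plain library sizes, -0.05 to 0.07 with libraries left out), Slc39a1 for activated platelets against thrombin (-0.02 with block and GC correction, -0.02 to 0.05), and the Slc30a6 interaction (0.04 with block and GC correction, -0.08 to 0.02). With libraries left out, Mt2 for activated platelets against thrombin ran from -0.38 to 0.23, Slc39a1 from -0.03 to 0.02 for activated against resting platelets and from -0.06 to 0.01 in the interaction, and Slc30a6 from -0.03 to 0.07 for activated against resting platelets and from -0.07 to 0.02 for resting platelets against vehicle.

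With the replicate block, 3 of the 10 genes were called between resting platelets and vehicle, and 4 with block and GC correction (Slc39a1, Mtf1, Slc30a5 and Slc39a6; adjusted p = 0.0493, 0.0482, 0.0174 and 0.0416). The interaction gave 4 with the block and 5 with block and GC correction, with Slc30a7 added (0.000289). The block, alone or with GC correction, changed no other call of the 10 genes than these and that of Slc39a10 against thrombin. Block and GC correction called 2659 of 14776 genes between resting platelets and vehicle and 3518 of 14776 for the interaction. Over all genes the block called 5391 against 2472 for activated against resting platelets, 3360 against 529 for resting platelets against vehicle (953 with DESeq2, 335 without filter, 188 with 2 groups alone), 6499 against 3960 for activated platelets against thrombin, 4535 against 1550 for the interaction, 1285 against 45 for thrombin against vehicle (160 with DESeq2, 11 with 2 groups alone) and 6635 against 4031 for activated platelets against vehicle. The cause was not tested. At 15 to 41 counts per library in both groups with thrombin, Mt2 had the largest standard error of the 10 genes (0.22 for activated against resting platelets).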
